A study of Mus musculus with 5 samples.

Results

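The step from day 12 to day 15 was the last of a 15-day culture of mouse cartilage cells, and it was read on 2 of the 5 arrays of the series. Primary rib chondrocytes were isolated from FVB embryos at embryonic day 18.5 with collagenase and trypsin, strained, and plated on gelatin. All 5 cultures were in serum-containing DMEM/F12 with high glucose, ascorbic acid and beta-glycerophosphate, and medium was renewed every second day. Total RNA was collected on days 2, 6, 9, 12 and 15 and hybridised to 1 Affymetrix array per day. The labels give no oxygen tension, no time since the last medium change and no statement of whether the arrays came from one isolate or how many embryos were pooled. With 1 array per day there was no replicate error and no test, so every value below describes these arrays and not the days in general. Of 18193 genes with a probe set of their own, 13453 were above the intensity floor on day 12 or day 15 and made up the comparison. The floor was 73.1, the 40th percentile of all values, and each gene was read from its brightest probe set. A gene is called higher or lower here where the floored intensities of day 15 and day 12 differed at least 2-fold, and differences are on the log2 scale, day 15 minus day 12.

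Cells sense oxygen through prolyl hydroxylases that mark the alpha subunits of the hypoxia-inducible factors (HIF) for destruction. When oxygen is short the factors accumulate, bind a short DNA core in promoters and enhancers, and switch on glucose uptake, glycolysis, lactate export, mitochondrial restraint and angiogenic signals. Fetal growth-plate cartilage has no vessels and relies on this pathway for the survival of its central chondrocytes.

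Day 15 stood apart from day 12 by a hypoxia and glycolysis programme. Of 79 genes in 6 lists covering oxygen sensing, sugar transport, glycolysis, mitochondrial switching, secreted signals and transcription, 72 were measured in this step, 5 had no probe set and 2 were at the floor on both days. At least 2-fold higher on day 15 were 36 of the 72, where 4.27% of all genes were, and the median difference of the 72 was 1.08 against 0.00 over all genes. At least 2-fold lower were 2 of the 72, Epas1 and Pgf, where 3.76% of all genes were. These shares of all genes are the background for every list count against day 12 below. Against day 9 the shares were 4.92% higher and 3.67% lower. The same genes had medians of 0.11, -0.27 and 0.20 in the steps from day 2 to 6, day 6 to 9 and day 9 to 12. Consecutive steps share an array, so a low value on day 12 enters both the step before it and the step after it. Against day 9 all 36 were also at least 2-fold higher, where 358 of all 574 genes called higher were. That comparison reuses the day 15 array on which the 36 were called, so it is not independent of the call. Above every earlier day were 34 of the 36, where 427 of all 574 genes called higher lay above days 2, 6 and 9. On day 12, 20 of the 36 read lower than on day 2, a count without a share over all called genes beside it. A second probe set above the floor existed for 22 of the 36, and it was higher on day 15 in all 22 and at least 2-fold higher in 18. It reads the same 2 arrays. Among all called genes with another probe set, 77.7% had it in the same direction and 33.0% had it past 2-fold.

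**Figure D1:**
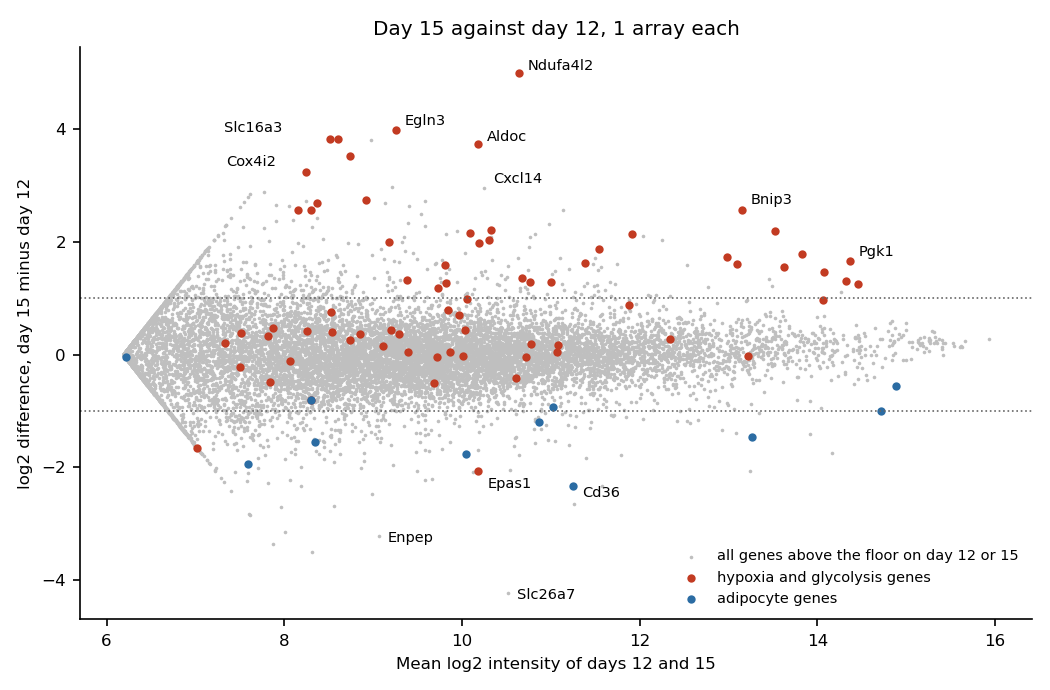
Log2 difference of day 15 minus day 12 against the mean log2 intensity of both days, 1 array each, for 13453 genes (grey), with hypoxia and glycolysis genes in red and adipocyte genes in blue; dotted lines mark 2-fold. Red points reach 5.00 for Ndufa4l2, and 36 of 72 lie at or above the upper line, while Cd36 at -2.32 is the lowest blue point.

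The 5 promoters shown belong to the members with the largest differences after Ndufa4l2, which is named only: Egln3, Slc16a3, Ankrd37, Aldoc and Stc2. They are RefSeq promoters of build GRCm38.p6, 250 bases before to 50 after the annotated start, 5′ to 3′ on the gene's strand. Egln3 lies at chr12:54203825-54204124 on the minus strand, Slc16a3 at chr11:120948817-120949116 on the plus strand, Ankrd37 at chr8:45999801-46000100 on the minus strand, the first of 2 Aldoc entries at chr11:78322823-78323122 on the plus strand, and Stc2 at chr11:31370012-31370311 on the minus strand. Capitals mark ACGTG and GCGTG, the core of the HIF binding element, searched on both strands, so that they also appear as CACGT and CACGC. The first motif overlaps the E-box CACGTG, which none of the 5 holds.
Egln3: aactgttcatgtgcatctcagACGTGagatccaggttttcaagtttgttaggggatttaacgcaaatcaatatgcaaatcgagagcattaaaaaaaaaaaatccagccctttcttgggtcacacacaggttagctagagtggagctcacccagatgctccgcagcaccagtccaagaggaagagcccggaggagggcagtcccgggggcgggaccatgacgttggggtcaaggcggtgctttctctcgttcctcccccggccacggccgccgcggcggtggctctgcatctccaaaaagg
Slc16a3: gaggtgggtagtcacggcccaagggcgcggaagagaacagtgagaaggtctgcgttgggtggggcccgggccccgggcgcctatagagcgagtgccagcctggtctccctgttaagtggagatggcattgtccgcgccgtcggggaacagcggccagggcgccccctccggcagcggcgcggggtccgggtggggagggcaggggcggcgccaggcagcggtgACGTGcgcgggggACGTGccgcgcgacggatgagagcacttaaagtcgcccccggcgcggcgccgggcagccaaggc
Ankrd37: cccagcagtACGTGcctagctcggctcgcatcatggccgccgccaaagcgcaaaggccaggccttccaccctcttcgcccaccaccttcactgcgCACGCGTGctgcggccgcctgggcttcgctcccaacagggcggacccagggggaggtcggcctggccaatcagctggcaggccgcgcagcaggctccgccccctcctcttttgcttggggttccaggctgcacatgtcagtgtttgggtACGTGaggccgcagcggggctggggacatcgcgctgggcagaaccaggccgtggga
Aldoc: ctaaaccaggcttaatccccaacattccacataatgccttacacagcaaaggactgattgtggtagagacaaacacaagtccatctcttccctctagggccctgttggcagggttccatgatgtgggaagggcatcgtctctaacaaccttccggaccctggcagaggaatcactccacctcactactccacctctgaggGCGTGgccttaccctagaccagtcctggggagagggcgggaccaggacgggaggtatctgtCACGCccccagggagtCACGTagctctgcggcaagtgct
Stc2: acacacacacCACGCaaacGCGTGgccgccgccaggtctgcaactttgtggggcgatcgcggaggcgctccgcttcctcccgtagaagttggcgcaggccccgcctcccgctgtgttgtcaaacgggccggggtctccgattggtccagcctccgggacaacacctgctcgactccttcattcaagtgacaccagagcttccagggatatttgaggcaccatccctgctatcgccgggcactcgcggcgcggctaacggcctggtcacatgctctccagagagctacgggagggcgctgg
The Egln3 window held 1 ACGTG, those of Slc16a3 and Ankrd37 held 2 each, that of Aldoc 1, and that of Stc2 none. GCGTG occurred 2 times in Ankrd37, in Aldoc and in Stc2 and not in the other two. ACGTG was present in 55.8% of 43 promoters of the members called higher, and in 54.1% of 37 promoters of the members not called higher. The background was 24.6% of 13834 promoters of measured genes and 19.6% of all 32851 promoters. Over the 527 promoters of other genes called higher the share was 23.9%, and over 462 promoters of genes called lower it was 18.4%. The share was therefore close in members that passed 2-fold and members that did not. GCGTG was in 48.8% of promoters of the members called higher and in 54.1% of those of the members not called higher. The share was 48.0% for measured genes, 44.0% for other genes called higher, 44.2% for genes called lower and 32.4% for all promoters. A match describes these letters and not a site in use.

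Oxygen sensing itself split between its members. Below, the 5 values of a gene are linear intensities on days 2, 6, 9, 12 and 15. Egln3, the prolyl hydroxylase known as PHD3 and itself a HIF target, read 275, 128, 55.8, 154 and 2427. It was therefore lowest on day 9, and its day 15 value was 15.7-fold that of day 12. Egln1, the main oxygen-sensing hydroxylase PHD2, read 565, 777, 544, 622 and 2554, without a clear trend until day 12 and 4.11-fold higher on day 15. Hif1a, the oxygen-regulated subunit, read 6627, 10029, 9412, 9615 and 9509.5. Its transcript thus differed only 1.01-fold over the step. Epas1, which encodes the related subunit HIF-2 alpha, read 166, 365, 1212, 2382 and 568: it was highest on day 12, and day 15 was 4.19-fold lower. A second Epas1 probe set gave -1.33 on the log2 scale. Arnt, the partner of both subunits, differed by -0.02, Vhl, which recognises the hydroxylated subunits, by 0.05 and Egln2 by -0.03. Of the 10 measured genes of this list 2 were called higher and 1 lower, where 4.27% and 3.76% of all genes were.

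Of 6 measured genes for sugar entry and lactate transport 3 were called higher and none lower, where 4.27% and 3.76% of all genes were. Slc2a1, the glucose transporter GLUT1, read 8953, 4923, 1816, 1843 and 8098. Its course was a decline to day 9, a flat stretch to day 12 and a day 15 value 4.39-fold above day 12 that lay below day 2. Slc2a3, the high-affinity transporter GLUT3, read 39.1, 78.7, 145, 130.0 and 769 and was 5.92-fold higher. Slc16a3, the lactate exporter MCT4, read 288, 222, 76.4, 97.1 and 1380.0, so that day 15 was 14.2-fold above day 12 and above every earlier day. Its chaperone Bsg differed by 0.96, just under the 2-fold line, and the lactate carrier Slc16a1 by 0.04. The insulin-responsive transporter Slc2a4, also a marker of fat cells, went the other way at -0.80.

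Glycolytic enzymes were higher from phosphofructokinase to lactate dehydrogenase. Of 17 measured genes 12 were called higher, none lower, and 16 lay above their day 12 value. The brain-type aldolase Aldoc read 37.3, 303, 343, 319 and 4248 and was 13.3-fold higher, with a second probe set at 1.27 on the log2 scale. Eno2, the neuronal form of enolase, read 172, 174, 254, 186 and 1249.8: 4 days near one level and then 6.71-fold higher. Pgk1, the phosphoglycerate kinase, read 27318, 17489, 10915, 11853 and 37372, which was 3.15-fold higher and above day 2. The pyruvate kinase Pkm read 20602, 8593, 5023, 4450.0 and 14717, a 3.31-fold difference that left day 15 below day 2. Ldha, which turns pyruvate into lactate, read 26526, 18145, 12212, 14524 and 34671 and was 2.39-fold higher. The platelet phosphofructokinase Pfkp was 4.49-fold higher, the liver form Pfkl 3.08-fold, the phosphoglycerate mutase Pgam1 3.05-fold and the triose isomerase Tpi1 2.75-fold. The hexokinases Hk1 and Hk2, at the entry of the pathway, differed by 0.98 and 0.70 and did not reach 2-fold, and Pfkfb4 was at -0.49. Gapdh is carried on the array as a control with 3 probe sets, and these were 1.78- to 2.27-fold higher on day 15, while 3 Actb control probe sets were 1.01- to 1.08-fold higher. At the middle Gapdh probe set the days read 42859, 27891, 19800.1, 20719 and 44249, a course close in shape to that of Pgk1.

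**Figure D2:**
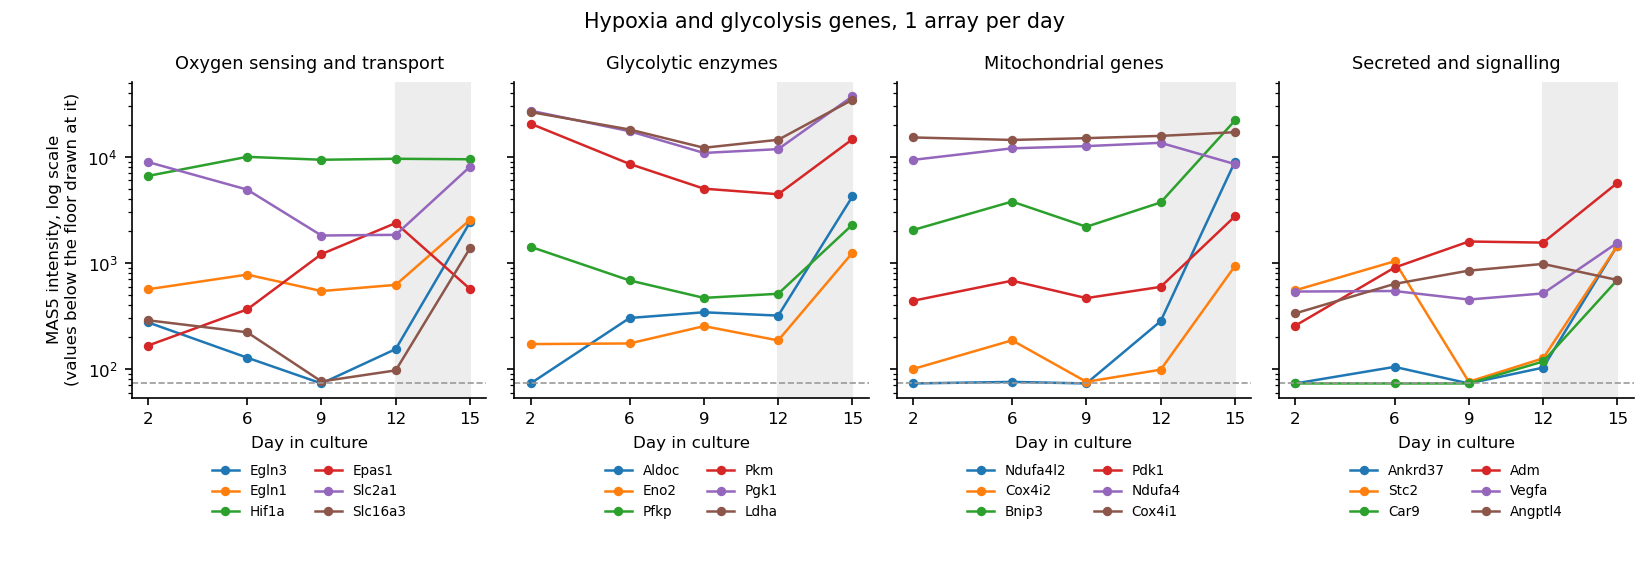
Intensity on a log scale against day in culture, 1 array per day, for genes of oxygen sensing and transport, glycolysis, mitochondria and secreted signals; grey bands mark the last step and the dashed line the floor of 73.1. Ndufa4l2 climbs from 283 to 9013 within the band, whereas Hif1a is level at 9615 and 9509.5 and Epas1 goes from 2382 to 568.

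Mitochondrial genes gave the largest single difference of the step. Ndufa4l2, a HIF target that restrains complex I, read 47.9, 75.6, 24.7, 283 and 9013. It was near or below the floor through day 9, and day 15 was 31.9-fold above day 12, the highest among all genes measured on both days. Its conventional relative Ndufa4, a subunit of complex IV, read 9387, 12062, 12657, 13593 and 8566 and was 1.59-fold lower, its lowest value of the 5. Cox4i2, the hypoxic isoform of a complex IV subunit, read 99.999, 187, 75.8, 98.6 and 935 and was 9.48-fold higher, while the constitutive isoform Cox4i1 differed by 0.12. Bnip3, a mitophagy receptor, read 2046, 3797, 2196, 3724 and 22077, 5.93-fold higher. Pdk1, the kinase that shuts pyruvate out of the mitochondrion, read 440.3, 681, 466, 595 and 2754 and was 4.63-fold higher. Fam162a, Higd1a and Mxi1 were 4.55-, 2.94- and 2.41-fold higher. All 10 measured genes of this list were above their day 12 value, 7 were called higher, and those 7 were all at least 2-fold above every earlier day. Mgarp, a mitochondrial protein outside the lists, read 174, 239, 84.0, 135 and 1879 and was 14.0-fold higher. The respiratory chain as a whole did not share this: of 20 measured genes none was called higher, 1 was called lower, and the median was -0.04. That gene was Ppargc1a, a regulator of mitochondrial gene expression, which was at the floor on day 15 and at least 2.17-fold lower. Its call was lost with a floor at the 60th percentile and when all probe sets were averaged. Ndufaf4, an assembly factor of complex I, read 3957, 1829.5, 1102, 1299 and 393 and was 3.31-fold lower.

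Secreted and signalling targets followed with 11 of 17 called higher and 1 lower. Ankrd37, a small ankyrin protein, read 26.7, 105, 53.6, 103 and 1459.6, 14.2-fold higher. Stc2, a stanniocalcin, read 553, 1037, 75.8, 126 and 1454: it was high on days 2 and 6, low on days 9 and 12 and 11.5-fold above day 12 at the end. Other Stc2 probe sets gave smaller differences of 0.64 to 1.95. The carbonic anhydrases that acidify the cell surface were higher together, Car9 reading 67.9, 11.3, 30.9, 118 and 693 and Car12 reading 344, 62.2, 77.2, 129.6 and 839, which came to 5.89- and 6.47-fold. A second Car12 probe set gave only 0.69. Car6, a secreted carbonic anhydrase outside the list, was 6.65-fold higher and below its day 2 value. Vegfa, the angiogenic factor that draws vessels into cartilage, read 538, 544, 452, 517 and 1552, 4 days at one level and then 3.01-fold higher. Adm, the vasodilator adrenomedullin, read 257, 905, 1594, 1557 and 5696 and was 3.66-fold higher, and its relative Adm2 was at the floor on days 9 and 12 and at least 5.35-fold higher. Mif was 3.46-fold higher on its brightest probe set and 0.12 (log2) on another, so that its size is uncertain. Pgf, a VEGF relative, read 41.4, 240.2, 22.7, 231 and 19.4 and was at least 3.16-fold lower; it had been at the floor on days 2 and 9 as well, so against day 9 the difference was 0.00. Angptl4, Hmox1, Stc1 and Edn1, also known HIF targets, differed by -0.50, -0.41, -0.11 and 0.20.

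Chromatin and transcription genes of the pathway differed less, with 1 of 12 called higher and none lower. That gene was Bhlhe40, a clock-related repressor, which read 475, 380.5, 496, 589 and 2321 and was 3.94-fold higher. The histone demethylase Kdm3a differed by 0.79, Rbpj by 0.88, Kdm4b by -0.21 and Kdm5b by -0.05.

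Collagen-modifying and glycogen enzymes stood beside the core pathway. Of 16 measured genes for collagen hydroxylation and crosslinking 6 were called higher, none lower, and the median was 0.71. P4ha1 and P4ha2, the catalytic subunits that hydroxylate collagen prolines, were 3.27- and 4.23-fold higher, and P4ha2 read 1866, 2619, 763, 844 and 3566. Ero1a, the oxidase of the endoplasmic reticulum, read 2483, 2923, 939.7, 907 and 4511 and was 4.98-fold higher, with other probe sets at 2.03 to 2.22. Plod1, a lysyl hydroxylase, was 2.66-fold higher, and Plod2 differed by 0.02. None of the 6 was at least 2-fold above every earlier day. In glycogen metabolism 2 of 12 genes were called higher and 1 lower, where 4.27% and 3.76% of all genes were. Pygl, a glycogen phosphorylase, was 4.39-fold higher with the course 897, 1005, 1056, 864 and 3798. Gbe1, the branching enzyme, was 3.13-fold higher, and Ppp1r3d was lower at -1.15. Against day 9 it was 6 of 12 higher and none lower, so the glycogen count depended on which earlier array was used.

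Genes at a new high on day 15 were a minority of those called. At least 2-fold above each of the 4 earlier days were 164 genes (1.22%), of which 25 were among the 72 hypoxia and glycolysis genes. A stricter definition asked for a 2-fold difference in the last step and less than 1.5-fold in either direction in each of the 3 earlier steps. It held for 132 genes on the higher side (0.981%), 13 of them among the 72, and 67 of the 132 were also 2-fold above every earlier day. At the floor on days 2 to 12 and at least 2-fold above it on day 15 were 24 genes. The 8 largest of the strict class were Ankrd37, Chil1, Tnn, Eno2, Prelid2, Thy1, Prrt4 and Ctla2a. Chil1, a chitinase-like glycoprotein secreted in cartilage, read 232, 196, 170.1, 212 and 1657, 4 days within a narrow band and then 7.82-fold higher. Tnn, a tenascin of bone and tendon surfaces, read 15.3, 26.7, 9.81, 59.9 and 508 and was at least 6.96-fold higher, at the floor on every earlier day. Thy1, a surface glycoprotein of fibroblasts and other mesenchymal cells, read 15.8, 79.6, 102, 60.5 and 477 and was at least 6.53-fold higher. Prelid2 read 193, 252, 247, 298 and 1975, 6.63-fold higher, but a second probe set gave 0.04 on the log2 scale. Likewise Prrt4 was at least 6.14-fold higher on one probe set and 0.10 (log2) on another. Among the hypoxia genes Egln1, Vegfa, Ldha, Tpi1, Pgam1, Mxi1 and Bhlhe40 met the strict definition. The definition limits each earlier step and not their sum, so a gene that drifted can meet it. Ldha declined from day 2 to day 9, and its day 15 value was less than 2-fold above day 2. Ndufa4l2, Egln3 and Slc16a3 did not meet it, since they also differed in earlier steps, but they were at least 2-fold above every earlier day.

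Genes at a new low on day 15 were fewer still. At least 2-fold below every earlier day were 56 genes (0.416%), and 70 genes (0.52%) met the strict definition on the lower side. None of either class was among the 72, which is near these small shares of all genes and marks no trait of the 72. From at least 2-fold above the floor on days 2 to 12 down to the floor on day 15 went 14 genes. Ccl9, a chemokine that attracts osteoclast precursors, met both definitions and read 3675, 4488, 4792, 6807 and 1362. It had been level or climbing throughout and was 5.00-fold lower on day 15, with a second probe set at -2.43. Cytl1, a cytokine-like protein of cartilage, read 469.7, 3509.9, 1057, 397 and 93.3: the last step, 4.26-fold lower, continued a decline that began after day 6. Alx1, a homeobox factor of skeletal precursors, read 658, 1277, 1114, 619.8 and 183 and was 3.39-fold lower, with a second probe set at -1.69. Dido1 was 3.88-fold lower on its brightest probe set while others ranged from -0.44 to 0.34, and Gpat4 was 3.60-fold lower against -0.05 on another. Prmt6 at -1.60 had a second probe set at 0.32, and L3mbtl2 was at least 3.65-fold lower. Asb4 read 497, 475, 415, 261 and 82.2, 3.17-fold lower. Probe sets of one gene often disagreed among all called genes: of 449 called genes with another probe set above the floor, 77.7% had it in the same direction and 33.0% had it past 2-fold as well. Over 3043 genes with 2 probe sets above the floor on both days, the SD of 1 probe set's log2 difference was 0.39.

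The step was of middling size in the culture. From day 12 to day 15 574 genes were called higher and 506 lower. In the step from day 2 to 6 it was 9.19% higher and 6.66% lower, from day 6 to 9 5.04% and 4.88%, and from day 9 to 12 2% and 1.61%. Of the 574, 64 were at least 4-fold higher and 167 were at the floor on day 12, so that theirs are lower bounds. On day 15, 147 of the 574 lay within the range of days 2, 6 and 9 and 427 lay above it. Of the 506 called lower, 34 were at least 4-fold lower, 150 were at the floor on day 15, 283 lay within the range of days 2, 6 and 9 and 223 below it. Day 15 against day 9 gave 4.92% higher and 3.67% lower, and 358 of the 574 and 231 of the 506 were called the same way against both days. Genes just inside the line on the lower side included Hhip at -1.01 and just outside it Lpl at -0.998.

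**Figure D3:**
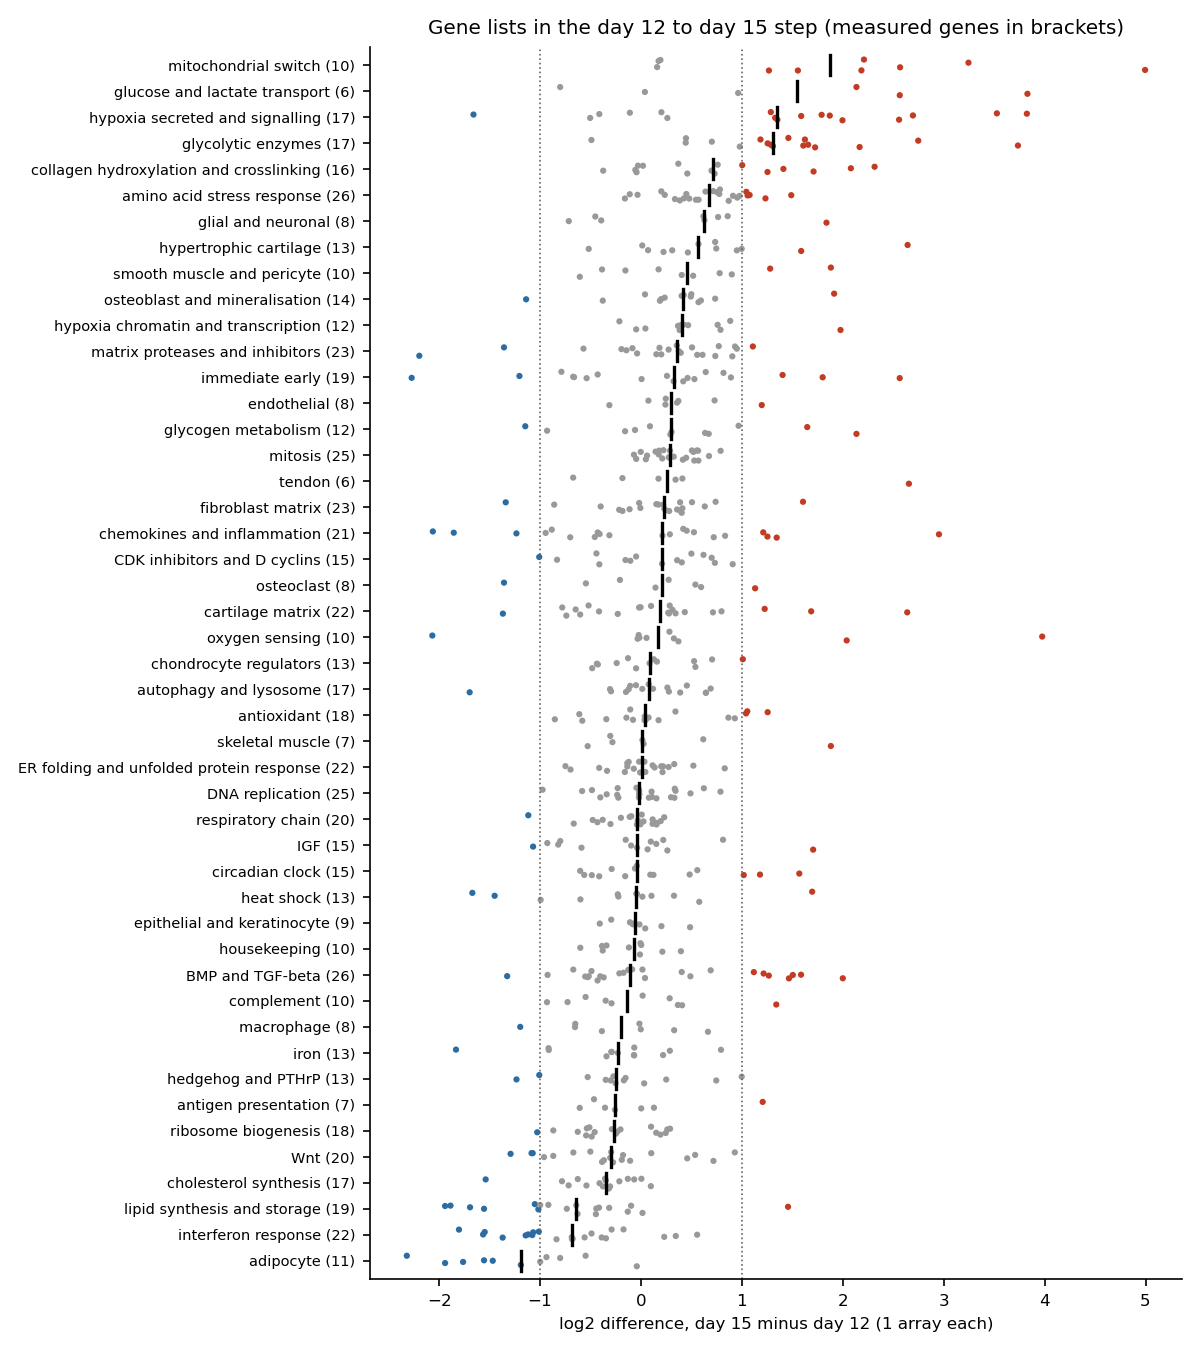
Log2 difference of day 15 minus day 12 for every measured gene of each list, 1 array each, with red and blue points at least 2-fold higher and lower, black bars at the median and dotted lines at 2-fold. The mitochondrial switch list has the highest median at 1.87 and the adipocyte list the lowest at -1.19.

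Transcripts of chondrocyte markers were detected on both days. All 6 defining chondrocyte markers (Col2a1, Acan, Sox9, Col9a1, Hapln1, Matn1) were above the floor on day 12 and day 15, as were the 4 osteoblast markers with a probe set. Over all probe sets 58.8% were above it on day 12 and 59.1% on day 15. Of 12 adipocyte genes 11 were above it on day 12 and 10 on day 15. The count therefore shows detection and does not settle cell identity. Col2a1, the main cartilage collagen, read 46505, 39066, 22143, 7510.3 and 17566: it was lowest on day 12 and 2.34-fold higher on day 15, yet against day 9 the difference was -0.33. Acan, the large proteoglycan of cartilage, read 19492, 11052, 2092, 723 and 2328 and was 3.22-fold higher, a return to about its day 9 value. Prg4, the lubricin of joint surfaces, read 50.4, 357, 123, 106 and 660.0 and was 6.23-fold higher, above every earlier day. Ucma, a matrix protein of immature cartilage, was 2.58-fold lower. Of 22 measured matrix genes 3 were called higher and 1 lower against day 12 (median 0.19), but 1 higher and 12 lower against day 9 (median -1.10). The shares of all genes were 4.27% and 3.76% against day 12, and 4.92% and 3.67% against day 9. Col9a1, Col11a1, Comp and Matn1 differed by 0.00, -0.02, 0.31 and -0.23, and the master regulator Sox9 by 0.16. The uptick of Col2a1 and Acan was therefore not shared by the list.

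Among hypertrophic and bone genes, single members were called against day 12 and more against day 9. Col10a1, the collagen of hypertrophic cartilage, read 4800.4, 228, 35.1, 270.1 and 1686: it had been at the floor on day 9 and was 6.24-fold higher on day 15 than on day 12, still below day 2. Ihh, a signal from prehypertrophic cells that was at the floor on day 12, was at least 1.997-fold higher and was not called. That bound does not settle on which side of the 2-fold line it lay. Mmp13 differed by 0.95, Alpl by 0.74 and Ibsp by 0.57. In this list 2 of 13 were called higher, where 4.27% of all genes were, and none lower. The other was Vegfa, which is shared with the hypoxia lists, which leaves Col10a1 as the one call of its own. Against day 9 it was 6 of 13 higher, where 4.92% of all genes were. Tnfrsf11b, the decoy receptor osteoprotegerin, read 2232, 1064, 1004, 889 and 3352 and was 3.77-fold higher. Phex, a phosphate-regulating peptidase of bone cells, was 2.20-fold lower than on day 12 but differed by 0.98 from day 9. Col1a1, Dmp1 and Sp7 differed by 0.59, 0.49 and 0.50. Of 14 osteoblast genes 1 was called higher and 1 lower, close to the shares of all genes, and against day 9 it was 5 higher and none lower.

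Matrix and growth factor genes outside cartilage gave mixed counts. Growth factors of the BMP and TGF-beta families, with their antagonists and receptors, gave 26 measured genes with a median of -0.11. Of these 7 were called higher and 1 lower, where 4.27% and 3.76% of all genes were. Averaging all probe sets left 5 higher and none lower. Inhba, the activin A subunit, read 1508, 425, 246, 322 and 1286 and was 4.0-fold higher, Grem1, a BMP antagonist, was 3.0-fold higher, Tgfbi 2.84-fold and Fstl3, an activin antagonist, 2.76-fold. Chrdl1, another BMP antagonist, was 2.51-fold lower. Bmp2, Bmp4 and Id1, a direct target of BMP signalling, differed by 0.04, -0.49 and -0.09. Among 23 fibroblast matrix genes 1 was called higher, Mfap5 at 3.04-fold, and 1 lower, Col14a1 at -1.34, about the shares of all genes (4.27% and 3.76%). Against day 9 it was 5 higher and 1 lower. Thbs4, a thrombospondin of tendon, read 68.1, 119.6, 108, 95.6 and 602 and was 6.30-fold higher. Adamts9, a proteoglycan-cleaving protease, read 12.8, 401, 1044, 1739 and 379.5 and was 4.58-fold lower, and Timp1, a protease inhibitor, was 2.16-fold higher. Adam8, a membrane protease, read 219.5, 203, 105, 80.5 and 596 and was 7.40-fold higher.

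In the Wnt list 3 of 20 genes were called against day 12, all lower, where 3.76% of all genes were. Axin2, a feedback inhibitor of Wnt signalling, was at the floor on day 15 and at least 2.45-fold lower. Nkd1, another feedback inhibitor, differed by -1.08 and Sfrp2, a secreted Wnt modulator, by -1.07. Against day 9 it was 1 higher and 1 lower of 18 with a median of 0.12, and averaging all probe sets left 1 lower, so the direction was not stable. Among 13 hedgehog and PTHrP genes 2 were called lower, where 3.76% of all genes were. These were the transcription factor Gli2 at -1.23 and the hedgehog-binding protein Hhip at -1.01, at the line itself. With either other scaling it was 1 lower and 1 higher. The target Ptch1 differed by -0.17, and Gli1 was at the floor on day 15. In the IGF list Igfbp6 was 3.26-fold higher and Igfbp5 2.10-fold lower.

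Adipocyte genes were lower, from a peak on day 12. Of 11 measured genes 6 were called lower and none higher, and the median was -1.19 after 1.84 and 1.09 in the steps from day 6 to 9 and day 9 to 12. Adipoq, the fat-cell hormone adiponectin, read 79.3, 79.6, 5191, 16395 and 5924 and was 2.77-fold lower. Cd36, a fatty acid transporter, read 12.5, 84.8, 2239, 5430.4 and 1087 and was 4.99-fold lower, with other probe sets between -2.46 and -1.51. Cebpa, a transcription factor of fat-cell differentiation, read 265, 409, 1883, 1943 and 573 and was 3.39-fold lower. Cidec, a lipid droplet protein, was 3.84-fold lower, the hormone-sensitive lipase Lipe 2.94-fold and the hormone Retn 2.28-fold. Pparg, the master regulator, differed by -0.94 and Fabp4 by -0.55. This pattern rested on the day 12 array: against day 9 the median was -0.12, 2 genes were called lower and 1 higher, and Adipoq, Cidec, Lipe and Retn turned to 0.19, 0.43, 0.16 and 1.31. The summed intensity of the 12 adipocyte genes with a probe set was 105371 on day 12 and 54862 on day 15. In a bulk array, fewer cells of a type and less RNA per cell cannot be told apart.

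Lipid synthesis and storage genes were lower with them, 6 of 19 called lower and 1 higher, with 17 of 19 below their day 12 value. As for the adipocyte genes this rested on the day 12 array: against day 9 it was 2 lower and 1 higher, with a median of -0.37. Gpd1, which makes the glycerol backbone of fat, was 3.70-fold lower, though its other probe sets ranged from -2.32 to 0.02, and Dgat1, the last enzyme of fat synthesis, was 3.23-fold lower with a second probe set at 0.29. Fasn, the fatty acid synthase, was 2.07-fold lower and met the strict definition. Thrsp, an activator of lipid synthesis outside the lists, read 11.1, 42.4, 354, 1068 and 94.5 and was 11.3-fold lower. The member on the other side was Hilpda, a lipid droplet protein that HIF induces, 2.75-fold higher. Plin2, another droplet protein, differed by -0.31. The part of adipocyte content in the lipid result was not tested.

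Interferon-response genes were lower, continuing from day 9. Of 22 measured genes 9 were called lower, where 3.76% of all genes were, and none higher. Several of these genes were dim on day 15, and the count fell to 4 with a pseudocount in place of the floor, to 2 of 20 with a floor at the 60th percentile and to 1 of 11 among genes at or above the 70th percentile of intensity. The median was -0.68, after 1.98 from day 6 to 9 and -0.64 from day 9 to 12, and against day 9 12 of 25 were called lower. Rtp4, an interferon-induced gene, read 95.5, 358, 3563, 1594 and 545 and was 2.92-fold lower than on day 12. Ifit1, an antiviral RNA-binding protein, read 12.5, 13.9, 929.8, 216 and 66.1 and was at least 2.96-fold lower, back at the floor where it had been on days 2 and 6. Gbp3 was 2.59-fold lower, the transcription factor Irf7 2.21-fold, Ifih1, an RNA sensor, 2.11-fold, and Oas1a at least 3.49-fold. Iigp1, an interferon-induced GTPase outside the list, read 38.8, 97.7, 1608, 1659 and 356 and was 4.66-fold lower. Antigen presentation, often linked to this response, gave none called lower of 7 and 1 called higher, Nlrc5, a regulator of class I genes, at least 2.31-fold from the floor. B2m differed by 0.00, H2-D1 by -0.47 and H2-K1 by -0.61.

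Chemokine and inflammatory genes split, 4 of 21 called higher and 3 lower, where 4.27% and 3.76% of all genes were. Cxcl14, a chemokine of skin and mesenchyme, read 293, 512, 299, 438 and 3392 and was 7.74-fold higher, with a second probe set at 2.48. The prostaglandin enzymes Ptgs2 and Ptges were 2.38- and 2.54-fold higher and Il11 was at least 2.32-fold higher. Il1rn, the natural antagonist of interleukin 1, read 23.4, 4524, 17499, 19749 and 4729 and was 4.18-fold lower, close to its day 6 value. Ccl2, a monocyte chemokine, read 242, 161, 453, 487 and 135 and was 3.62-fold lower, and Il6 differed by -1.23.

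**Figure D4:**
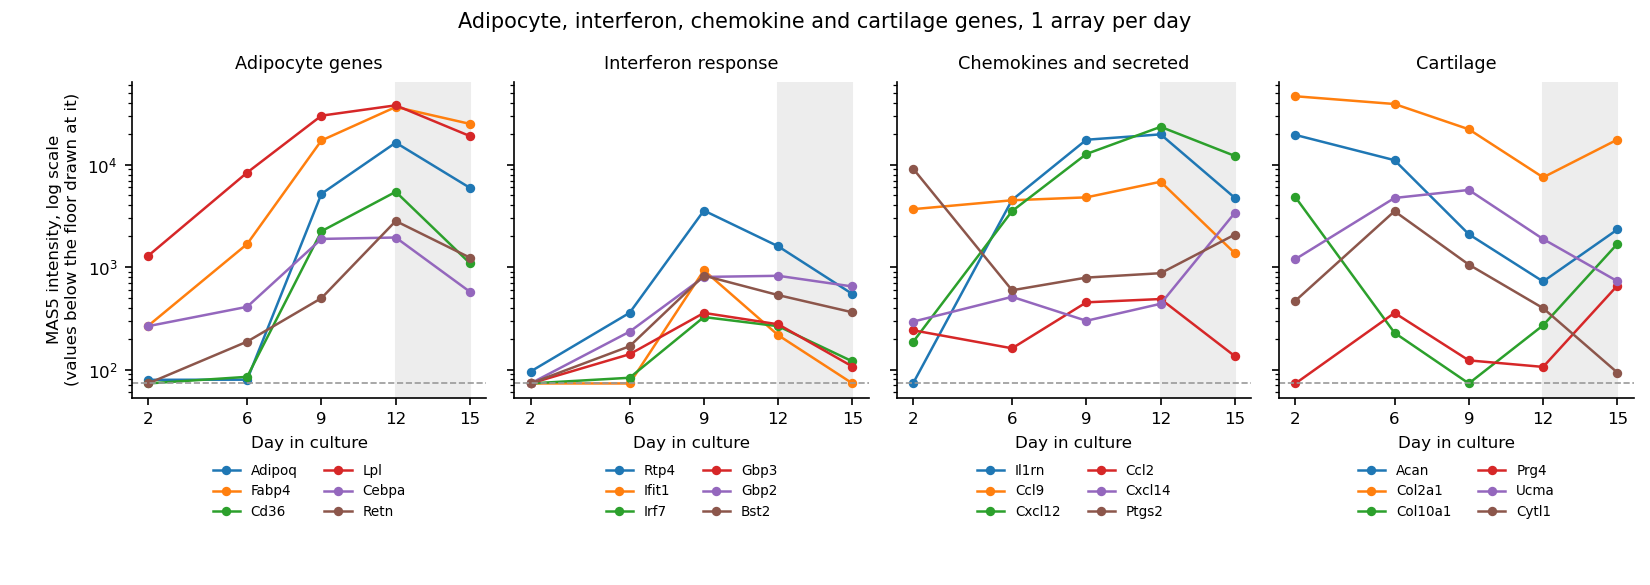
Intensity on a log scale against day in culture, 1 array per day, for adipocyte, interferon-response, chemokine and secreted, and cartilage genes; grey bands mark the last step and the dashed line the floor. Il1rn goes from 19749 to 4729 and Ccl9 from 6807 to 1362 within the band, while Cxcl14 goes from 438 to 3392.

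Among single genes outside the lists, the lowest difference belonged to Slc26a7. This chloride and bicarbonate exchanger read 161, 1005, 4019.6, 6362 and 339.6, climbing to day 12 before a 18.7-fold lower value, and its second probe set gave -3.59. Enpep, an aminopeptidase that cleaves angiotensin, read 72.0, 1966, 2877, 1635 and 175 and was 9.32-fold lower. Agtr2, an angiotensin receptor, read 10.5, 136, 1001, 956 and 149 and was 6.42-fold lower. Otor, a secreted protein of cartilage and inner ear, read 53.5, 1039, 6796, 6131 and 973 and was 6.30-fold lower. Itga8, an integrin subunit, was 5.51-fold lower with a second probe set at -2.37, and Tnfrsf19, a receptor of the tumour necrosis factor family, was 6.48-fold lower with others between -1.46 and 0.42. Sult1a1, a sulfotransferase, was 8.89-fold lower. The largest bounds on the lower side were Ear3 at least 10.2-fold, Lyz1 at least 7.22-fold, Epha7, an ephrin receptor, at least 7.07-fold and Klf15, a transcription factor of fat and muscle metabolism, at least 4.53-fold. The Ear3 and Lyz1 probe sets carry the array's suffix for sequence shared with related genes. On the higher side the largest bound was that of Ifitm10, at least 7.19-fold above its day 12 floor, and A4galt, a glycolipid galactosyltransferase, was at least 4.93-fold higher.

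Stress programmes differed from each other. In the amino acid stress response 5 of 26 were called higher, where 4.27% of all genes were, and none lower. Above day 12 lay 23 of 26, and the median was 0.68 after -1.39 from day 6 to 9. Against day 9 it was 13 of 26 higher, where 4.92% of all genes were, and none lower. Cth, an enzyme of cysteine synthesis, was 2.81-fold higher, Aldh1l2, a mitochondrial folate enzyme, 2.35-fold, and Asns, the asparagine synthetase, differed by 0.98. The regulators Atf4 and Ddit3 differed by 0.38 and 0.24. None of 22 genes of folding in the endoplasmic reticulum was called, which for a list of this size is near the shares of all genes. Hspa5 differed by -0.01 and Xbp1 by 0.27. Of 13 heat shock genes 1 was called higher and 2 lower, where 4.27% and 3.76% of all genes were, with a median of -0.05. Hspb8 was 3.24-fold higher, and on floored values Hspa1a and Hspa1b were 2.73-fold and 3.18-fold lower. Of the 13, 12 were above the floor on day 15. A floor at the 60th percentile left 1 higher and 1 lower, and averaging all probe sets gave 0 higher and 3 lower. Of 18 antioxidant genes 3 were called higher, where 4.27% of all genes were, and none lower. These were the metallothioneins Mt1 and Mt2 at 2.08- and 2.39-fold and Gpx3, a secreted peroxidase, at 2.06-fold. The other 15 lay within 2-fold, and the list median was 0.04. Quantile normalization left 2 called higher, as did averaging all probe sets.

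Early-response genes were called in both directions. Ier3 was 5.91-fold higher, Fosl1, an AP-1 subunit, 3.48-fold with the course 4168, 577, 550.1, 373 and 1299, and Atf3 at least 2.65-fold, whereas Egr2 read 133, 250.1, 1633, 496 and 103 and was 4.83-fold lower. Fos, Jun and Egr1 differed by -0.54, 0.82 and -0.67. Of 19 genes 3 were called higher and 2 lower, where 4.27% and 3.76% of all genes were, with a median of 0.32. Against day 9 it was 3 higher and 8 lower, with a median of -0.92, so the balance of directions rested on the day 12 array. Of 15 clock genes 3 were called higher, where 4.27% of all genes were: Dbp at 2.97-fold, Npas2 at 2.26-fold and Nr1d1 at 2.03-fold. A pseudocount in place of the floor reduced this count to 1, and Per2 and Clock differed by 0.12 and -0.41.

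Cell division genes did not pass 2-fold in this step. None of 25 DNA replication genes and none of 25 mitosis genes was called in either direction. Over all genes 4.27% were called higher and 3.76% lower, so lists of 25 without a call are near those shares. The medians were -0.02 and 0.29, and 22 of the 25 mitosis genes lay above day 12. Mki67 differed by 0.14, Top2a by 0.18, Ccnb2 by 0.55 and Mcm2 by -0.22. The cell-cycle inhibitors Cdkn1a and Cdkn1b differed by 0.73 and 0.70. Of 17 autophagy and lysosome genes 1 was called, Tfeb, a regulator of lysosome genes, at least 3.24-fold lower, a call lost against day 9. Of 13 iron genes 1 was called, the metalloreductase Steap4 at 3.56-fold lower. Both shares are near those of all genes.

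**Figure D5:**
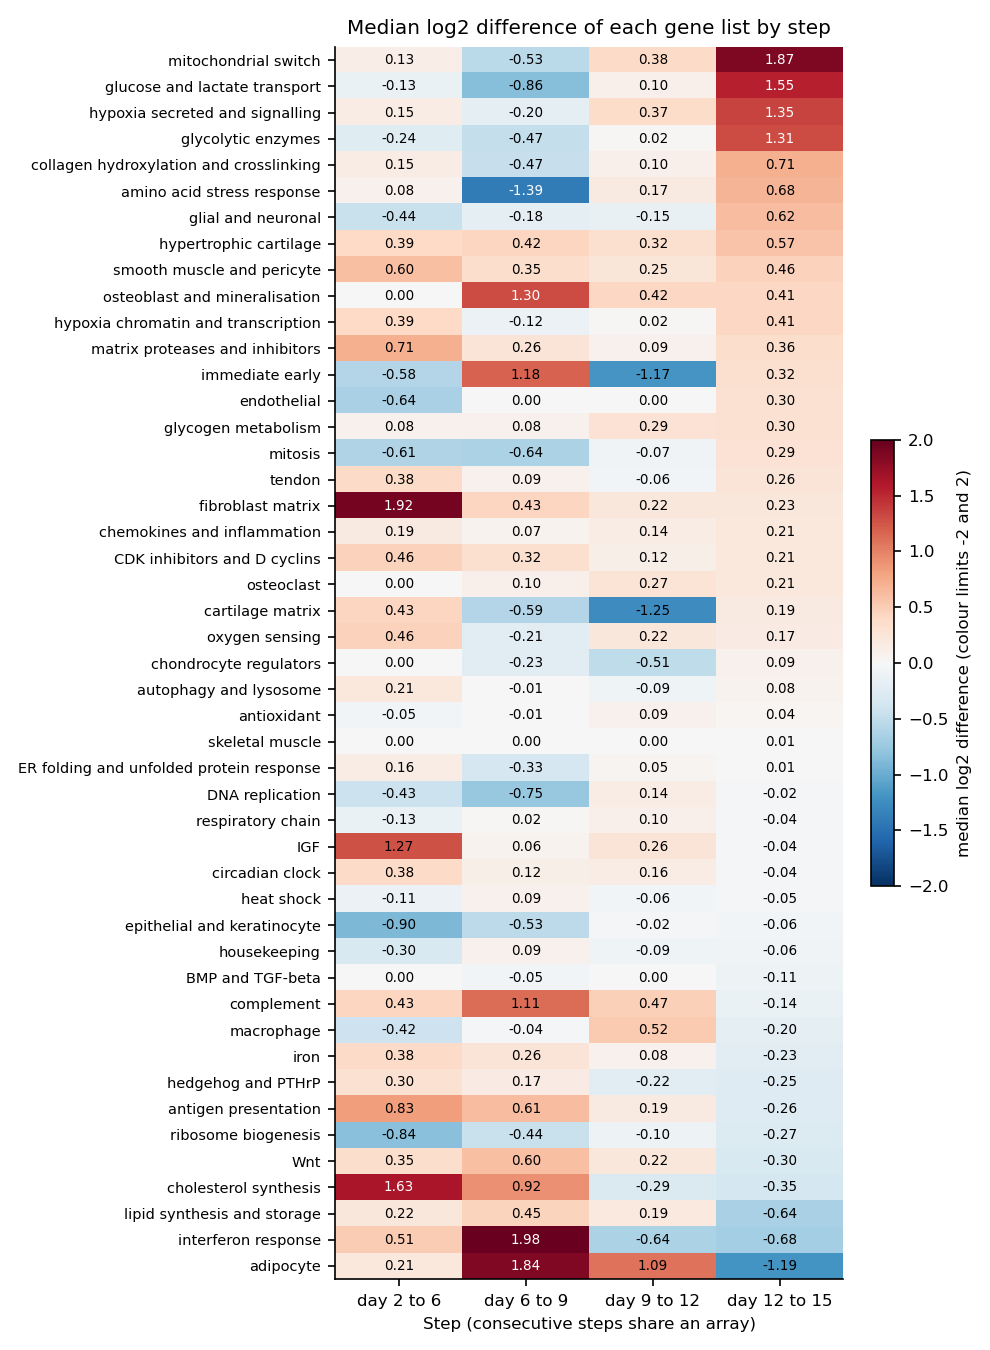
Median log2 difference of each gene list in the 4 consecutive steps, coloured from -2 (blue) to 2 (red) with the value printed in each cell. The mitochondrial switch and glycolytic enzyme lists have 1.87 and 1.31 in the last column, and the interferon list turns from 1.98 in the step from day 6 to 9 to -0.68 in the last.

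Array quality and other cell types gave the following values beside these results. Median intensities over the 5 arrays were 106 to 118, and 58.8 to 61.9% of probe sets were above the floor. Signal at the 3′ end of Actb over that at its 5′ end, a measure of RNA integrity, was 1.23 on day 12 and 1.26 on day 15, and 18 hybridisation spike-ins differed 0.981- to 1.16-fold between both arrays. Labelling spike-ins, 24 in number, differed 0.762- to 1.45-fold. Endothelial markers above the floor went from 3 to 7 of 12, with Kdr at least 2.29-fold higher, and their summed intensity was 834 and 1395. Macrophage markers above it went from 8 to 7 of 13 and skeletal muscle markers from 3 to 7 of 16, with summed intensities of 1462 and 1345, and of 1876 and 1817. All 8 blood genes with a probe set were at the floor on both days. Sex-linked transcripts, looked at after their values were seen, differed between the arrays: Xist, expressed from the inactive X, read 1394, 2270.0, 2096, 2841 and 1141 and was 2.49-fold lower, and the Y-linked Eif2s3y read 833, 1032, 1075, 1012 and 1783 and was 1.76-fold higher, with a second probe set at -0.24. The part of cell makeup, embryo sex and isolate in the differences above was not tested.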

How the data were processed

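Gene expression was measured on 5 Affymetrix arrays, 1 for each day of culture, and the days compared are 12 and 15. The deposited values are MAS5 intensity values on a linear scale, per the submitters' processing notes, which give no version. The trimmed mean of each array was 500 (2% trimmed from each end), so the arrays carry a common scale and a shift in total RNA is not visible. Precision is limited by having 1 array for each day.

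Of 45101 probe sets, 34945 had 1 gene symbol in the platform annotation, 932 had several, 9160 had none and 64 were controls. By gene ID, 34741 of these took the current RefSeq symbol and 204 kept the annotation's. A floor of 73.1 (the 40th percentile over all arrays) replaced every lower value, the brightest probe set of each gene was taken by its mean over the 5 arrays, and the log2 difference of day 15 minus day 12 was formed. A gene at the floor on 1 day gives a bound. Genes at the floor on both days were left out. Analysis used Python 3.11.15 with pandas 2.3.3 and numpy 2.4.6. The arithmetic of the calls was checked on simulated intensities without noise, which says nothing about the rate of false calls.

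The 48 gene lists (38 of pathways, 10 of cell types) and the comparison itself were chosen with earlier results of these data known, so their counts are descriptions. Genes were drawn for naming by rule. These were the 15 highest and 15 lowest differences and the 6 largest bounds each way. Added to them were the 8 largest of the new highs, of the new lows and of the last-step-only genes in each direction. From each list came the members past 2-fold (at most 8) with up to 6 well-known members. Not every gene drawn is named above, so the members named need not be all the calls of a list. The well-known members were picked after values were seen. Provisional gene models enter the counts but are never named. Promoters came from a RefSeq table of build GRCm38.p6, in which 31 of the 36 hypoxia and glycolysis genes called higher had an entry. Other scalings, floors, a pseudocount, probe set rules, intensity filters and day 9 as the earlier array were tried.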

Additional observations from a re-analysis of the deposited data

How the results depend on the processing

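The hypoxia and glycolysis count stayed within 1.5 times of 36 under every alternative tried. Totals over all genes depended on the floor. With a floor at the 20th percentile, 1824 genes were called higher and 1540 lower, 343 were 2-fold above and 256 2-fold below every earlier day, and 230 and 117 differed in the last step only, higher and lower. A floor at the 60th percentile gave 286 higher, 224 lower, 21 below every earlier day and 33 in the last step only on the lower side. Keeping only genes at or above the 70th percentile of intensity gave 207 higher, 180 lower, 74 above and 25 below every earlier day, and 43 and 28 in the last step only. Keeping genes at or above the median left 70 in the last step only on the higher side. A pseudocount in place of the floor gave 109 genes above every earlier day. Averaging all probe sets of a gene gave 331 lower and 30 below every earlier day. These filters and floors test fewer or more dim genes by construction. With day 9 in place of day 12, 6 of the 140 named genes past 2-fold turned sign: Adipoq to 0.19, Cidec to 0.43, Col2a1 to -0.33, Lipe to 0.16, Phex to 0.98 and Retn to 1.31, and Retn was 0.060 against the mean of days 9 and 12; the cause was not tested. Of the 65 named genes within 2-fold, 12 turned sign in the same way, among them Hif1a, whose differences are near 0. Of 526 list medians under the alternatives, 48 turned sign, 11 of them with day 9 and 9 with the mean of days 9 and 12. With day 9 the median of the cartilage matrix list went from 0.19 to -1.10, that of the immediate early list from 0.32 to -0.92 and that of the Wnt list from -0.30 to 0.12. Lists with medians near 0 therefore have no settled direction, and a median further from 0 did not exclude a turn. Where the main median was at least 0.3 from 0, 3 of 208 turned sign. With a floor at the 60th percentile the glial and neuronal median went from 0.62 to -0.09. Quantile normalization and centring on medians moved the median of all genes by 0.02 and gave 58.2% and 56.1% of called genes as higher, against 53.1%. Of 1640 recomputed differences of the genes named, 1350 stayed within 0.39 of the reported value and 283 moved further, besides the 7 sign turns given above for genes past 2-fold. No paired analysis was possible because each day has 1 array and the labels carry no replicate numbers. The dim end of the arrays limits what can be read: 167 of the genes called higher and 150 of those called lower were at the floor on 1 of both days.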
